A study of Gallus gallus with 8 samples.

Results

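Of 24759 features with an ENSGALG identifier in the count tables of cultured chicken skin cells, 76 were well above background in confluent keratinocyte monolayers and near 0 in skin equivalents. They were chosen as every such feature with at least 10 CPM (counts of a feature scaled to a common total of gene counts per library) in each of 3 monolayers and under 1 CPM in each of 3 skin equivalents. The tables hold 24902 features in all, of which 143 carry a name set by the authors, and 0 named features met the same thresholds. The choice rests on the levels in skin equivalents and monolayers, so their difference between those 2 cultures is a description here. Any call of members in that comparison was set in advance by the choice.

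All libraries came from primary chicken skin cells. The 3 skin equivalents were keratinocytes differentiated in 3 dimensions, the fibroblast library (1) came from a confluent culture, the subconfluent library (1) from keratinocytes before confluence, and the 3 monolayers from confluent keratinocytes. The labels give no genotype, strain, age or treatment other than the culture form. They do not say if replicates had their own bird or culture either, and a p-value here speaks only of how these libraries vary, in part perhaps for technical reasons. Which layers or cells of a skin equivalent gave the RNA is not stated either. The title codes 20, 34 and 56 recur in replicates 1, 2 and 3 of both replicated groups, and the subconfluent library carries 20. Titles of the replicates numbered 2 and 3 also hold the letters wo. All monolayer titles hold d8 and that of skin equivalent 1 holds d7. What these codes mean is not stated.

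Keratinocytes are the cells that build the epidermis. On a flat culture surface they stay as a thin sheet that covers the dish, whereas in a skin equivalent they stack into layers and pass through the programme that ends in cornified cells, with keratins and proteins of the epidermal differentiation complex as its best known products. The files do not pair ENSGALG identifiers with gene names. The reference gene table at hand (assembly GRCg7b) holds no such identifiers, so the members could not be looked up in it. The members are therefore given by identifier, without a function, a position or a sequence.

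Gene counts per library lay between 27329706 and 36728801, where 3 counts correspond to 0.0817 to 0.110 CPM. The keratinocyte label was checked on 6 basal-type keratins (Krt5L1, Krt5L2, Krt5L3, Krt14L1, Krt14L2 and Krt15), which form the filaments of the basal layer. Their summed level was 18903 to 27675 CPM in skin equivalents, 4.80 CPM in fibroblasts, where 2 of the 6 were at 0 counts, 40987 CPM in subconfluent cells and 10813 to 15755 CPM in monolayers. Of these, Krt5L2 was lower in skin equivalents, at 85.9 to 1174 CPM, against 4462 to 4891 CPM in monolayers, and so was Krt5L3, at 2.26 to 38.4 CPM, against 785 to 1422 CPM. The 105 named features of the cornified programme (names ending in -EDC and corneous beta-proteins) summed to 33229 to 36006 CPM in skin equivalents, 0.313 CPM in fibroblasts, 1346 CPM in subconfluent cells and 355 to 949 CPM in monolayers. Of the 105, 16 to 23 were at 0 counts in a skin equivalent, 99 in fibroblasts, 28 in subconfluent cells and 43 to 51 in a monolayer. Krt7, Krt8, Krt18 and Krt19, keratins of simple epithelia, summed to 73.4 to 92.7 CPM in skin equivalents, 21.9 CPM in fibroblasts, 1697 CPM in subconfluent cells and 3313 to 5916 CPM in monolayers. Between skin equivalents and monolayers the sum of the simple keratins was lower in skin equivalents, as the members were by choice. Krt8 alone was at 68.5 to 85.0 CPM in skin equivalents, against 87.4 to 266 CPM in monolayers. The sums of the basal keratins and of the cornified programme were higher in skin equivalents, but the 6 basal keratins did not rise as a set. Most of their sum in skin equivalents was Krt5L1, at 11622 to 17850 CPM, against 895 to 3112 CPM in monolayers. Krt14L1 was higher too, at 3623 to 4666 CPM, against 1467 to 1980 CPM. Krt5L2 and Krt5L3 were lower, and Krt14L2 and Krt15 overlapped between the 2 groups. The part of these keratins and of the cornified programme in the results was not tested. In bulk RNA, fewer cells of a type and less RNA per cell cannot be told apart.

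The members were a small share of what the monolayers expressed. Of 7616 ENSGALG features at 10 CPM or more in each monolayer, 76 (0.998%) stayed under 1 CPM in every skin equivalent, another 68 had their highest skin equivalent between 1 and 2 CPM, 614 lay between 2 and 10, and 6858 (90.0%) reached 10 or more. The opposite pattern, at least 10 CPM in each skin equivalent and under 1 in each monolayer, was met by 27 ENSGALG features. Among named features at 10 CPM or more in each monolayer, Krt19 had the lowest maximum over skin equivalents. It had 2.01, 4.87 and 0.863 CPM in skin equivalents 1 to 3 and 1187, 1859 and 1722 CPM in monolayers 1 to 3.

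The summed level of the 76 members was 25.7, 30.1 and 22.6 CPM in skin equivalents 1 to 3, 867 CPM in fibroblasts, 1892 CPM in subconfluent cells, and 5955, 4064 and 4188 CPM in monolayers 1 to 3. The fibroblast sum included 370 CPM of ENSGALG00000037587 and 132 CPM of ENSGALG00000006413. Subconfluent cells stood between skin equivalents and monolayers in the sum, and so did fibroblasts. The thresholds held the skin equivalent sum low and the monolayer sum high, so a place between them is no finding. The median member had 0.278, 0.329 and 0.216 CPM in skin equivalents 1 to 3, 1.32 CPM in fibroblasts, 7.90 CPM in subconfluent cells and 26.1, 29.5 and 30.5 CPM in monolayers 1 to 3. Most members were modest in monolayers: 58 averaged under 50 CPM and 7 averaged over 100 CPM.

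**Figure D1:**
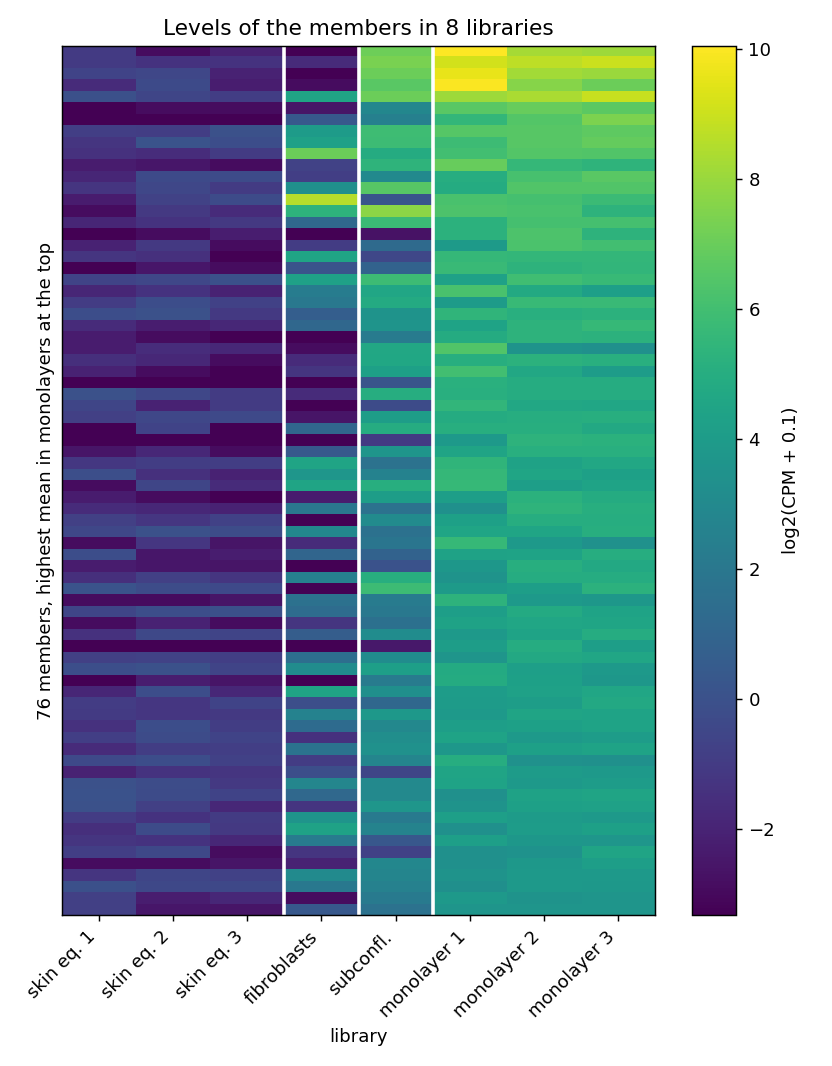
Level of each of the 76 members (rows, highest mean in monolayers at the top) in 8 libraries (columns), as log2(CPM + 0.1), with white lines between groups. Skin equivalents are dark and monolayers bright by the choice of members, while fibroblasts and subconfluent cells, which were not used in the choice, show a mixture with medians of 1.32 and 7.90 CPM.

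In skin equivalents the members left few reads. Over the 3 skin equivalents a member had 0 to 68 counts in all, with a median of 28.5, against 1096 to 47085 counts over the 3 monolayers. The median ratio was 129-fold lower in skin equivalents than in monolayers, with the 4 members at 0 counts set at a floor of 3 counts per library, and the smallest ratio was 18.0-fold. The thresholds fixed the direction of these folds and kept them from being small, so they are no finding. In the fit of skin equivalents against monolayers 23.6% of all 13230 features tested were lower and 25.9% higher, and 76 of 76 members were lower, which their choice set in advance.

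The limits of the choice show how close other features came. ENSGALG00000002356, just inside, had 0.868, 0.659 and 0.647 CPM in skin equivalents and 10.02, 15.2 and 14.0 CPM in monolayers. ENSGALG00000012187 had the highest single skin equivalent value of a member, 0.988 CPM. Just outside lay ENSGALG00000016132, whose lowest monolayer was at 9.91 CPM, and ENSGALG00000016707, whose highest skin equivalent was at 1.08 CPM.

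Few members carried much of the signal. The 5 with the highest means in monolayers held 61.3%, 38.0% and 39.3% of the summed level of all members in monolayers 1 to 3 and 35.0% in subconfluent cells, but 2.61% in fibroblasts. ENSGALG00000010825 had 0.382, 0.0366 and 0.144 CPM in skin equivalents, 0 counts in fibroblasts, 138 CPM in subconfluent cells, and 1056, 308 and 272 CPM in monolayers. ENSGALG00000001885 followed the same order, with 0.556, 0.622 and 0.144 CPM in skin equivalents, 0 counts in fibroblasts, 130.1 CPM in subconfluent cells and 766, 294 and 262 CPM in monolayers. In both, monolayer 1 stood far above monolayers 2 and 3, and the subconfluent library lay below every monolayer.

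ENSGALG00000008552 was steadier over monolayers, with 0.382, 0.293 and 0.288 CPM in skin equivalents, 0.209 CPM in fibroblasts, 162 CPM in subconfluent cells and 566, 423 and 495 CPM in monolayers. The other 2 of the 5, named after their values were seen, differed from each other in fibroblasts. ENSGALG00000019553 had 0.0348 CPM in fibroblasts and 99.2 CPM in subconfluent cells, against 991, 196 and 130 CPM in monolayers. ENSGALG00000006689 had 22.4 CPM in fibroblasts and 134 CPM in subconfluent cells, against 272, 322 and 486 CPM in monolayers. Of the 5, it was the only one above 1 CPM in fibroblasts.

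**Figure D2:**
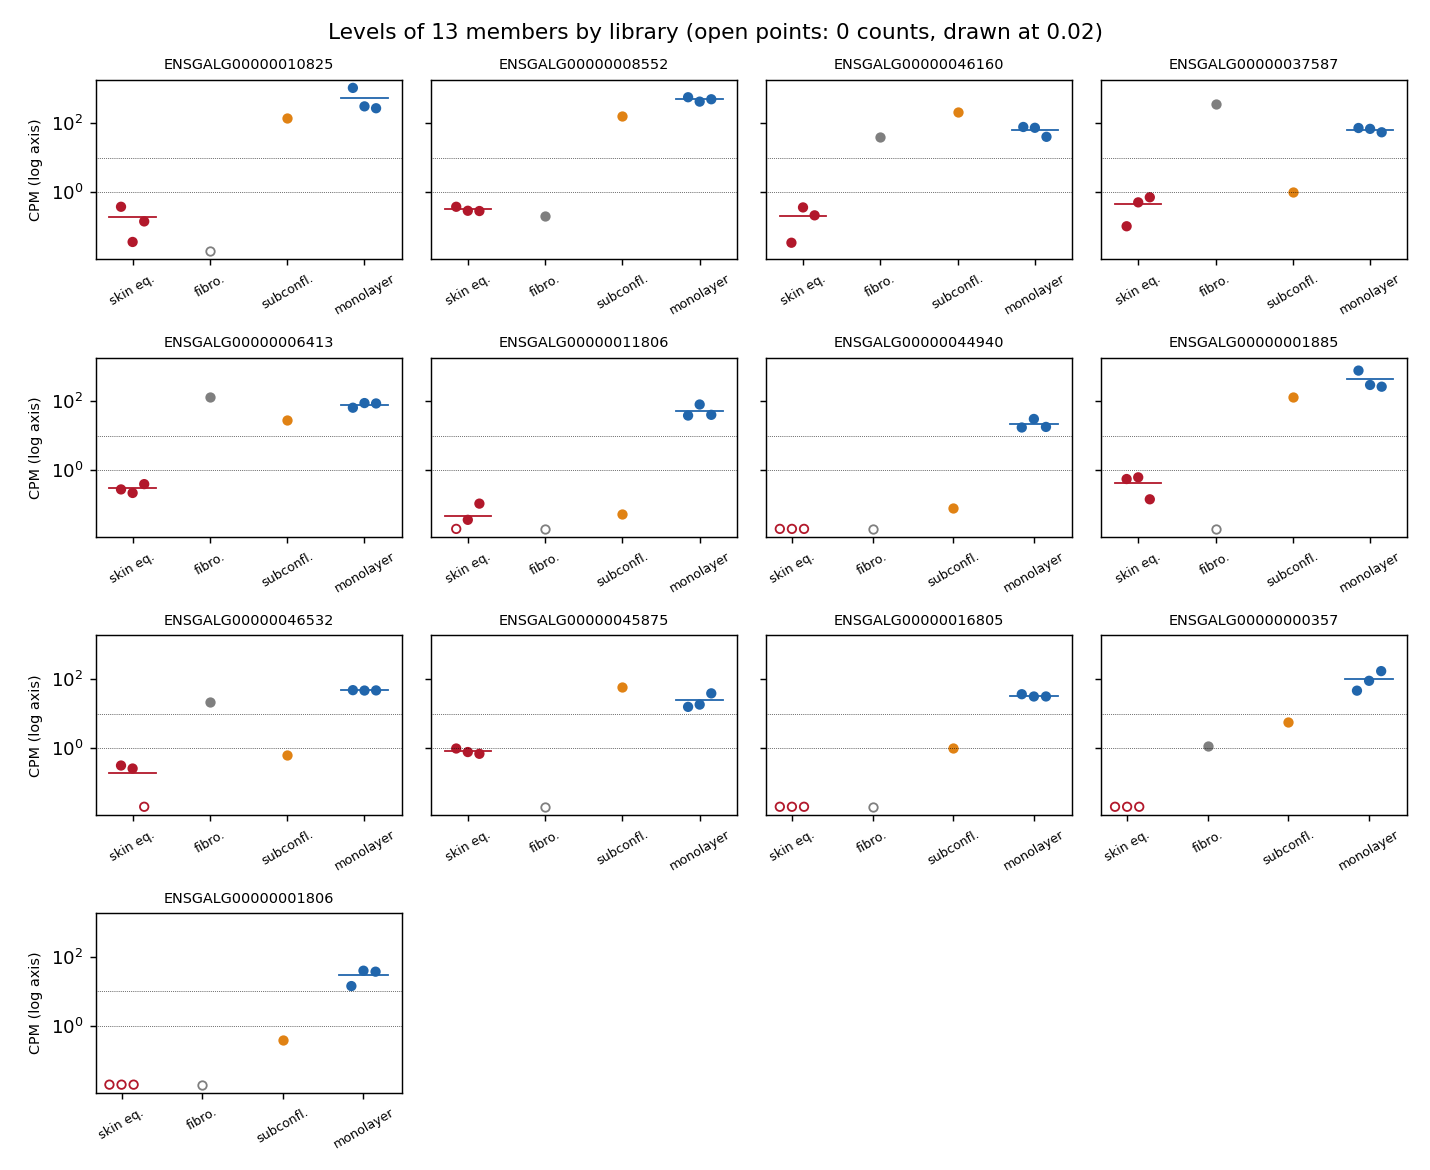
CPM (log axis) of 13 members named by rule, 1 panel each, in skin equivalents, fibroblasts, subconfluent cells and monolayers. Points are libraries, bars are means of 3 libraries, dotted lines mark 1 and 10 CPM, and open points are libraries with 0 counts, drawn at 0.02. Skin equivalents lie under 1 and monolayers over 10 by choice, whereas the fibroblast point runs from 0 counts (ENSGALG00000010825) to 370 CPM (ENSGALG00000037587).

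For 4 members every skin equivalent had 0 counts. ENSGALG00000000357 had 1.18 CPM in fibroblasts (34 counts), 5.53 CPM in subconfluent cells and 46.0, 88.7 and 169 CPM in monolayers, which makes it at least 944-fold lower in skin equivalents. ENSGALG00000016805 had 0 counts in fibroblasts, 1.03 CPM in subconfluent cells and 36.3, 31.2 and 31.2 CPM in monolayers. ENSGALG00000001806 and ENSGALG00000044940 were also at 0 counts in fibroblasts, with 0.381 and 0.0817 CPM in subconfluent cells. The last 3 were at least 307-fold, 284-fold and 204-fold lower in skin equivalents than in monolayers, against a floor of 3 counts per library. At the other end, ENSGALG00000045875 kept the most counts in skin equivalents, 28, 21 and 19, or 0.972, 0.768 and 0.683 CPM.

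How the members behaved before confluence was a question their choice had not used, apart from the monolayer levels. Most members were present in subconfluent keratinocytes but lower there than in monolayers. At 1 CPM or more in subconfluent cells were 68 of 76 members (89.5%), beside 99.8% of the 7616 monolayer features, and 33 members (43.4%) reached 10 CPM, beside 93.4%. In 60 members (78.9%) the subconfluent library lay below all 3 monolayers, beside 43.3% of the monolayer features. In 12 members (15.8%) it lay within their range, beside 25.1%, and in 4 (5.26%) above all of them, beside 31.6%. The median ratio of subconfluent cells to the mean of the monolayers was 0.355 in members and 0.906 over the monolayer features. Against monolayer 1 alone, which shares the code 20 with the subconfluent library, the median ratios were 0.309 and 0.935. Members had lower levels in monolayers than the monolayer features as a whole, with a median of 29.6 against 50.3 CPM.

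In the edgeR quasi-likelihood test over all 15019 features, 0.726% of all features were lower in subconfluent cells than in monolayers and 0.606% were higher at an adjusted p of 0.05. Among the 76 members 14 were lower (18.4%) and 0 were higher, while 62 were not called. The rule required high monolayer levels, and all members passed the filter through monolayers, which favours lower calls. The count of members called lower is therefore not independent of the choice, and neither are p-values of single members against monolayers. Of all 7616 monolayer features, 88 were lower (1.16%) and 52 higher (0.683%). At an unadjusted p under 0.05, 36 members were lower and 2 higher in edgeR, beside 10.7% and 12.7% of all features. DESeq2 called 34 members as lower and 1 as higher, beside 6.07% and 3.15% of all 19795 features in its fit, which had no such filter. The lone subconfluent library has no replicate of its own, so its spread was taken from the replicated groups. Leaving out skin equivalent 1 changed the number of members called lower the least, and that fit is not listed below. The count of 14 was unstable when 1 library was left out: it was 24 without monolayer 1, 0 without monolayer 2, 0 without monolayer 3, 5 without skin equivalent 2 and 1 without skin equivalent 3. Over all features the lower calls numbered 413, 1, 0, 30 and 3 in these fits, against 109 with all libraries. Without monolayer 1, every monolayer left held wo in its title and the subconfluent library did not. Culture form cannot be told apart from that mark, or from the title code, in that fit.

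The members below were named for their lower levels in subconfluent cells. The rule used the monolayer levels, so their p-values are not independent of the choice. By fold change, ENSGALG00000011806 lay furthest below monolayers in subconfluent cells. It had 0, 0.0366 and 0.108 CPM in skin equivalents, 0 counts in fibroblasts, 0.0545 CPM in subconfluent cells (2 counts) and 38.3, 79.9 and 40.1 CPM in monolayers. Only the monolayers were clearly above the floor, and the subconfluent value lay within the range of the skin equivalents. By pooled counts the subconfluent level was lower than the monolayers by a ratio of 974, with a 95% counting interval of 269 to 8045 (edgeR log2 fold change -9.67 ± 1.12, adjusted p = 0.0327). ENSGALG00000044940 had 0 counts in skin equivalents and fibroblasts, 0.0817 CPM in subconfluent cells (3 counts) and 17.3, 30.4 and 17.9 CPM in monolayers. Its ratio to the monolayers was 269, with a counting interval of 91.8 to 1305 (edgeR adjusted p = 0.037). Of the fits with 1 library left out, both calls were lost without monolayer 2, without monolayer 3 and without skin equivalent 3, with edgeR adjusted p-values between 0.0848 and 0.167.

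Besides the 12 members within the monolayer range, 4 had a subconfluent level above all 3 monolayers. ENSGALG00000046160, the highest member in subconfluent cells, had 39.2 CPM in fibroblasts and 209.8 CPM in subconfluent cells, against 78.0, 73.9 and 40.5 CPM in monolayers. Its log2 fold change in subconfluent cells was 1.84 ± 0.55 (edgeR adjusted p = 0.11, DESeq2 adjusted p = 0.0349). ENSGALG00000045875 had 58.0 CPM in subconfluent cells, against 15.6, 18.2 and 38.4 CPM in monolayers (log2 fold change 1.42 ± 0.47, edgeR adjusted p = 0.133). The subconfluent library lay above every monolayer in both. The other two of these 4, ENSGALG00000015733 and ENSGALG00000007337, exceeded the highest monolayer only narrowly, at 95.6 against 85.8 CPM and 33.1 against 31.4 CPM, and were named after their values were seen.

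Fibroblasts, the cells of the dermis, held fewer of the members. At 1 CPM or more in the fibroblast library were 41 of 76 members (53.9%), beside 95.3% of the monolayer features, and 14 (18.4%) reached 10 CPM, beside 81.2%. Of the members, 12 had 0 counts in fibroblasts and were at least 199-fold to 5231-fold lower there than in monolayers. In 70 members (92.1%) the fibroblast library lay below all 3 monolayers, beside 65.1% of the monolayer features. The median ratio of fibroblasts to the mean of monolayers was 0.0444 in members and 0.569 over the monolayer features.

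In the same edgeR fit, 23.0% of all features were lower in fibroblasts than in monolayers and 21.5% were higher. Among members 60 fell (78.9%), 2 rose (2.63%) and 14 were not called, whereas 33.1% of the monolayer features fell and 14.3% rose. The same limit on independence holds here, and the monolayer features were chosen on that level alone. The comparison of fibroblasts with subconfluent cells sets 2 libraries side by side that did not choose the members, but its estimate of spread and its filter rest on those that did. There 19.5% of all features were lower in fibroblasts and 14.9% were higher. Among members 36 fell (47.4%), 7 rose (9.21%) and 33 were not called, and of the 7616 monolayer features 2134 fell and 849 rose (11.1%). Both groups have 1 library, so these calls have no replicate check. The fibroblast library also differed in 2.53% ambiguous fragments, against 0.485% to 0.815% in the other libraries. Unmapped fragments were 9.22% there, against 3.77% to 7.15%, and multimapping fragments 3.26%, against 4.45% to 8.66%. Fragments in no feature were 13.7%, against 17.3% to 22.2%. The part of these differences in the result was not tested.

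Members were named by their values and the rule used the monolayer levels, so the p-values below are not independent of the choice. By edgeR log2 fold change, the largest falls in fibroblasts were those of ENSGALG00000010825 and ENSGALG00000001885, both at 0 counts there. At 0 counts only a lower limit of the fold can be given. Against monolayers they were at least 5231-fold and 4223-fold lower (edgeR adjusted p = 0.0022 and 0.00123), and they were lower than in subconfluent cells as well (edgeR adjusted p = 0.00581 and 0.00338). By mean CPM, ENSGALG00000019553 was 12638-fold lower in fibroblasts than in monolayers, a ratio that rests on 1 count. ENSGALG00000008552, with 6 counts in fibroblasts, fell by 10.88 ± 0.57 on the log2 scale against monolayers (edgeR adjusted p = 1.01e-04).

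ENSGALG00000037587 was the member with the highest fibroblast level. It had 0.104, 0.512 and 0.719 CPM in skin equivalents, 370 CPM in fibroblasts, 1.01 CPM in subconfluent cells and 72.9, 68.8 and 54.8 CPM in monolayers. Fibroblasts were above every keratinocyte library, and the subconfluent library lay nearer the skin equivalents than any monolayer did. It rose in fibroblasts with a log2 fold change of 2.80 ± 0.51 against monolayers (edgeR adjusted p = 0.00514) and 8.69 ± 0.98 against subconfluent cells (edgeR adjusted p = 0.00172). In subconfluent cells it fell by 5.88 ± 0.84 against monolayers (edgeR adjusted p = 0.0386), a call lost without monolayer 2 (0.105), monolayer 3 (0.166), skin equivalent 2 (0.0578) and skin equivalent 3 (0.0905).

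ENSGALG00000006413 had 0.278, 0.220 and 0.395 CPM in skin equivalents, 132 CPM in fibroblasts, 29.3 CPM in subconfluent cells and 64.5, 87.8 and 85.7 CPM in monolayers. It was the other member that rose in fibroblasts, by 1.04 ± 0.28 on the log2 scale against monolayers (edgeR adjusted p = 0.0198), and this call was lost with scaling by total count (0.0778) and without monolayer 3 (0.0579). ENSGALG00000046532 had 0.313, 0.256 and 0 CPM in skin equivalents, 21.9 CPM in fibroblasts, 0.626 CPM in subconfluent cells and 47.6, 46.3 and 46.8 CPM in monolayers. It was the only member with at least 10 CPM in fibroblasts and under 1 CPM in subconfluent cells. It rose in fibroblasts against subconfluent cells by 5.29 ± 1.03 on the log2 scale (edgeR adjusted p = 0.00996), and against monolayers its log2 fold change was -0.79 ± 0.71 (edgeR adjusted p = 0.391).

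Features high in fibroblasts were followed through the other libraries on 49 further ENSGALG features, chosen after the data were seen as at least 100 CPM in fibroblasts and under 1 CPM in subconfluent cells, which holds their subconfluent level low. Their summed level was 1.06%, 3.70% and 1.58% of the fibroblast level in skin equivalents 1 to 3, 0.0605% in subconfluent cells and 2.20%, 0.363% and 0.574% in monolayers 1 to 3. Which cells these reads came from was not tested. The member thresholds limit the same shares for members, so no comparison of the members with these features is drawn.

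**Figure D3:**
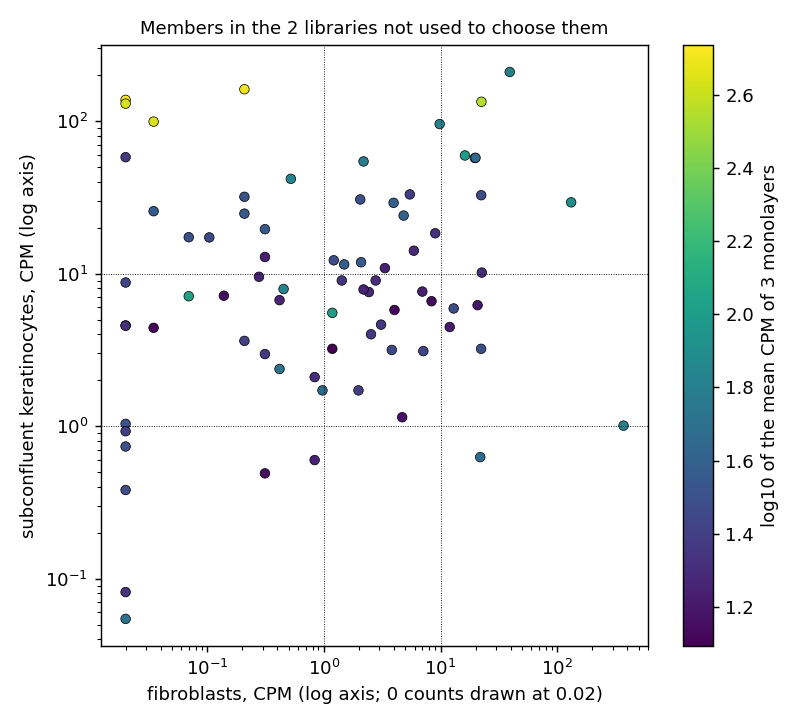
CPM in fibroblasts (x axis, log) against CPM in subconfluent keratinocytes (y axis, log) for the 76 members, 1 point each, coloured by the log10 mean CPM of 3 monolayers. Dotted lines mark 1 and 10 CPM, and members with 0 counts in fibroblasts are drawn at 0.02. The points run from 7 members under 1 CPM in both libraries to 8 at 10 CPM or more in both. The lower right is nearly empty: under 1 CPM in subconfluent cells, 0 members had 1 to under 10 CPM in fibroblasts and 1 had 10 or more.

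The members were sorted by cut-offs of 1 and 10 CPM in the 2 libraries not used in the choice, and separate kinds were not tested. From 1 to under 10 CPM in both were 15 members (19.7%), beside 2.28% of the monolayer features. Another 15 (19.7%), beside 0.775%, were at that level in subconfluent cells and under 1 CPM in fibroblasts. At that level in fibroblasts and at 10 CPM or more in subconfluent cells were 12 (15.8%), beside 11.8%. At 10 CPM or more in both fibroblasts and subconfluent cells were 8 (10.5%), beside 77.8% of the monolayer features. With 10 CPM or more in fibroblasts, 5 (6.58%) were from 1 to under 10 CPM in subconfluent cells, beside 3.35%. Under 1 CPM there was 1 (1.32%), beside 0.0919%. Another 13 members (17.1%), beside 3.78%, were at 10 CPM or more in subconfluent cells and under 1 CPM in fibroblasts. They included 4 of the 5 highest members. Under 1 CPM in both libraries were 7 members (9.21%), beside 0.105% of the monolayer features, which is 8 features in all. These 7 were thus at 1 CPM or more in confluent monolayers alone, with means there of 14.5 to 52.8 CPM. They include ENSGALG00000011806, ENSGALG00000044940 and ENSGALG00000001806, and their skin equivalent means ran from 0 to 0.382 CPM. In 14 members the fibroblast level was above the subconfluent level, beside 31.7% of the monolayer features.

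**Figure D4:**
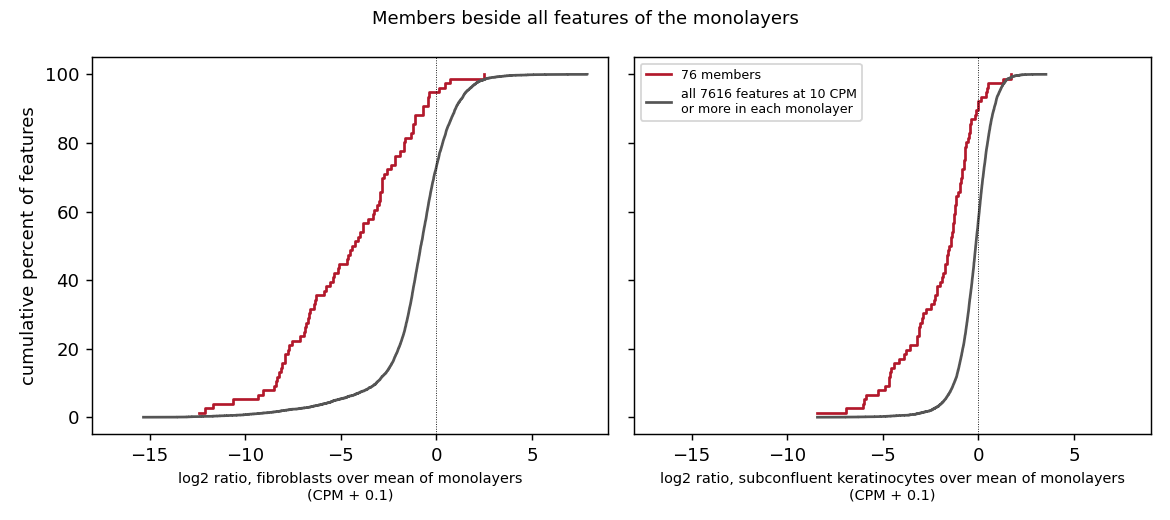
Cumulative percent of features (y axis) by their log2 ratio to the mean of 3 monolayers, on CPM + 0.1 (x axis), for fibroblasts at left and subconfluent keratinocytes at right. The members (red) lie left of all 7616 monolayer features (grey) over most of the range, with untransformed median ratios of 0.0444 against 0.569 in fibroblasts and 0.355 against 0.906 in subconfluent cells.

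The monolayers differed among themselves in these members. The median coefficient of variation over 3 monolayers was 0.306 in members and 0.176 over the monolayer features, and 43 members (56.6%) kept all monolayers within 2-fold, beside 84.7%. Monolayer 1, the one without wo in its title, was over 2-fold above both others in 12 members (15.8%), beside 2.09% of the monolayer features, and over 2-fold below both in 8 (10.5%), beside 7.48%. The 12 included 3 of the 5 highest members. Their median was 68.2, 24.4 and 18.7 CPM in monolayers 1 to 3 and 24.8 CPM in subconfluent cells. The subconfluent library lay below monolayer 1 in all 12 of these and at or below the higher of monolayers 2 and 3 in 10. In fibroblasts 8 of the 12 were under 1 CPM. Skin equivalent 1, also without the mark, had a median of 0.156 CPM in these 12, against 0.274 and 0.144 CPM in skin equivalents 2 and 3. The 49 fibroblast features were also highest in monolayer 1 among the monolayers, and their part in the spread was not tested.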

How the data were processed

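RNA of 8 libraries was measured; per the labels' protocols, RNA was poly(A)-selected, prepared with a strand-preserving kit and read as pairs of 75 bases. The authors deposited raw counts for each feature, as whole numbers. Tools named in the submitters' processing notes, with no step given, are DESeq2 1.22.2, RSEM, STAR 2.6.1a and bcl2fastq 2.19.1.403. No source used here gives the build, annotation or strand setting, so overlapping, antisense and near-identical genes are uncertain. The 4 rows of no gene (28.7% to 35.5% of fragments) were left out.

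CPM were scaled to gene counts without further normalisation. Folds and calls came from edgeR 4.0.16 in R 4.3.3 (quasi-likelihood, robust, TMM, default filter, Benjamini-Hochberg over all features at 0.05). Skin equivalents and monolayers were fitted in 6 libraries, the other comparisons in 8. All 76 members passed the filter, through monolayers. Alternatives used DESeq2 1.42.0, other scalings, filters and terms, and fewer libraries. The ± after a log2 fold change is a standard error, the fold divided by the root of its F statistic. Intervals and floors (3 counts per library) cover counting error only.

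Members and lists were chosen with earlier results of these data known. Where identifiers have no symbol, the rule named the 2 highest members in monolayers, subconfluent cells and fibroblasts, the 2 largest called changes in each direction of each comparison, and those with the most and fewest counts in skin equivalents. Lists given by symbol could be matched to named features only (keratins and the cornified programme), and the others were not analysed here.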

Additional observations from a re-analysis of the deposited data

How the results depend on the processing

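The number of members was 18 with thresholds of 20 and 0.5 CPM, 289 with 5 and 2 CPM, 65 with TMM-scaled CPM and 78 to 119 with 1 library left out of the choice, the highest without monolayer 1. At 10 CPM in place of 1 CPM, 33 members were present in subconfluent cells and 14 in fibroblasts. Members lower in subconfluent cells numbered 34 with DESeq2 and 23 with a term for the letters wo (6.07% and 3.39% of all features, 0.726% in the main setting). With 1 library left out they numbered 0 to 24, beside 0% to 2.77% of all features. With DESeq2 and with wo 1 member was higher, beside 3.15% and 4.17% of all features. The DESeq2 shares are over 19795 features. The cause was not tested. Without monolayer 2 and without monolayer 3, where edgeR called 0, 35 and 34 were lower at an unadjusted p under 0.05, beside 10.4% and 8.67% of all features. Members higher in fibroblasts than in monolayers numbered 1 with total count scaling, beside 17.6% of all features. With 1 library left out they numbered 1 to 2, beside 15.2% to 24.0% of all features. Members lower in fibroblasts, against monolayers or subconfluent cells, stayed within 1.5 times under every alternative run. The share of all features lower there ran from 15.6% to 28.7% against monolayers and from 12.4% to 24.1% against subconfluent cells. Over all features the median log2 fold change against monolayers was -0.14 with total count scaling and -0.00 with TMM in subconfluent cells, and -0.49 and -0.18 in fibroblasts. The median log2 fold change of members in skin equivalents was -6.72, and -7.00 with total counts and -6.97 to -6.28 with 1 library left out.

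Same-numbered skin equivalents and monolayers did not deviate together (correlations -0.08, -0.16 and 0.16), so the numbers were not taken to pair them. With the replicate block by title code over 7 keratinocyte libraries, edgeR called 0 members lower in subconfluent cells (lowest member adjusted p = 0.0748), against 14 without the block, and 0 of all features. At an unadjusted p under 0.05, 42 members and 11.5% of all features were lower with the block. With a replicate block the median log2 fold change of members in skin equivalents was -6.78. Among values of single named members under these alternatives, 449 kept their call or lack of one, 25 lost a call, 20 gained one and 0 changed sign. These numbers pool the comparisons with fibroblasts and with subconfluent cells, and count a lack of a call that stayed as kept. Every call of a member as lower in subconfluent cells was lost without monolayer 2, without monolayer 3 and with the block by title code. At 3 counts, a level under about 0.1 CPM cannot be told from 0.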
